A study of Mus musculus with 203 samples.

Results

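The liver X receptors (LXRs) and 8 genes linked to them in cholesterol efflux and lipid handling were followed in mouse macrophage RNA-seq. The 10 genes were Nr1h2, Nr1h3, Abca1, Abcg1, Mylip, Srebf1, Lpcat3, Apoe, Pltp and Scd2. They were taken by symbol from the gene tables, and all 10 were found among 25094 genes in the table of RAW cells and among 16478 genes in the table of bone marrow-derived macrophages (BMDMs). The BMDM table, from WT and Gps2 KO cells, holds the authors' own comparisons and no values per library, so its values were not used here and every value below is from RAW cells.

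RAW264.7 (RAW cells) is a mouse macrophage cell line, labelled as BALB/c. The 4 groups of 4 libraries were cells carrying a lentiviral shRNA against GFP, the control (shGFP), or against Kdm1a (shKDM1A), each left untreated or given IL4 (20 ng/ml) during 6 h. The labels give RAW cells as the source of these libraries, but their treatment text names BMDMs for RNA-seq, so dose and time follow the study's methods for RAW cells. Both lines went through lentiviral transduction and puromycin selection, and 1 shRNA clone was used against Kdm1a, so a difference between the lines cannot be told apart from an effect of that clone or of the selected line. KDM1A (LSD1) is a histone demethylase, and IL4 is the cytokine that drives alternative, or M2, macrophage activation. The libraries held 17554721 to 27782568 tags, and no library pair was identical. Nothing in the labels says that the 4 libraries of a group came from separate cultures. The study's methods state biological replicates for every experiment, without saying what a replicate was for these libraries. The p-values thus measure the spread between these libraries only.

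LXRα (Nr1h3) and LXRβ (Nr1h2) are nuclear receptors that bind DNA with a retinoid X receptor (RXR) partner and respond to oxysterols, oxidised forms of cholesterol. When a macrophage takes up excess cholesterol, they raise transcription of transporters that export it, of proteins that carry it away and of enzymes that reshape membrane fatty acids. Without ligand, the receptors can hold target genes down through corepressor complexes that hold HDAC3 and GPS2.

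The deposited value of a gene in a library is on a log2 scale, with library sizes already made equal. The transformation is not given in the sources used here, and whether it shrinks the changes of low genes was not tested. A difference of 1 on this scale is a doubling of the value taken out of the log. Where the transformation shrinks changes, the change in RNA is larger than that. Groups were compared with limma over the 12905 genes whose value reached 1 in 4 or more of the libraries, all of which entered the Benjamini-Hochberg adjustment, and a gene was called where the adjusted p was under 0.05. All 10 genes passed the filter. Fewer cells expressing a gene and less RNA per cell cannot be told apart in such bulk samples.

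Kdm1a itself separated the lines. Its log2 values were 11.21, 11.23, 11.13 and 11.17 in the shGFP libraries, 11.12, 11.10, 11.12 and 11.07 in the shGFP libraries with IL4, 10.36, 10.32, 10.23 and 10.29 in the shKDM1A libraries, and 10.32, 10.33, 10.34 and 10.28 in the shKDM1A libraries with IL4. Every shKDM1A library was below every shGFP library. The log2 differences were -0.88 without and -0.79 with IL4, so Kdm1a RNA was reduced and not absent. In shGFP cells Kdm1a was also lower with IL4 (-0.08, adjusted p = 0.048 from limma). The 7 macrophage markers examined lay between 9.79 (Adgre1) and 17.18 (Lyz2) across the 16 libraries. Of these markers 5 were called higher and 2 lower in the knockdown under either treatment, beside 19.7% and 18.4% of all genes without IL4 and 20.9% and 19.8% with it. With IL4, 2 rose in each line (13.1% and 13.6% of all genes in shGFP and shKDM1A cells), and 1 fell in shGFP cells and 3 in shKDM1A cells (13.7% and 13.5% of all genes). Adgre1 had a log2 difference of 1.24 with IL4 in shGFP cells and 0.90 in shKDM1A cells, and of -0.44 in the knockdown with IL4. Lyz2 had -0.53 with IL4 in shGFP cells and -0.12 in shKDM1A cells, and 0.26 and 0.68 in the knockdown without and with IL4. Itgam was 0.41 and 0.25 higher in the knockdown without and with IL4, and had -0.19 with IL4 in shKDM1A cells. Csf1r was 0.26 and 0.28 higher with IL4 in shGFP and shKDM1A cells, and 0.21 and 0.22 higher in the knockdown without and with IL4. Their part in the results was not tested. The 12 markers of T cells, B cells, fibroblasts and epithelium were at 0 or below in every library and none entered the test. All 6 genes known to respond to IL4 that were examined rose with IL4 in both lines, where 13.1% and 13.6% of all genes rose in shGFP and shKDM1A cells, the most in shGFP cells being Ptgs1 (log2 difference 1.77).

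The promoters of the genes that fell with IL4 or rose with the knockdown are shown because LXR-RXR dimers bind a direct repeat of the sequence AGGTCA spaced by 4 bases, called DR4. RefSeq promoters of build GRCm38.p6, which run from 250 bases before to 50 bases after each start, were at hand for 8 of the 10 genes, not for Abcg1 and Scd2, with 13 starts. Lower-case letters are the promoter, 5′ to 3′ on the gene's strand, and capitals mark the 2 elements of a DR4 with at most 3 mismatches over its 12 letters. The Abca1 window is chr4:53159846-53160145 (minus strand), that of Srebf1 is chr11:60210422-60210721 (minus strand), that of Lpcat3 is chr6:124662854-124663153 (plus strand) and that of Pltp is chr2:164857659-164857958 (minus strand).
Abca1: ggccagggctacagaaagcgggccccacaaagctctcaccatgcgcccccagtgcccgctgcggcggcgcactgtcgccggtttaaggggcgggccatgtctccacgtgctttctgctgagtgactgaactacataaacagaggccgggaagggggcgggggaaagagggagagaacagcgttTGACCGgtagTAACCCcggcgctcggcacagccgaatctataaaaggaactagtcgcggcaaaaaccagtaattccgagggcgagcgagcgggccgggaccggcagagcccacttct
Srebf1: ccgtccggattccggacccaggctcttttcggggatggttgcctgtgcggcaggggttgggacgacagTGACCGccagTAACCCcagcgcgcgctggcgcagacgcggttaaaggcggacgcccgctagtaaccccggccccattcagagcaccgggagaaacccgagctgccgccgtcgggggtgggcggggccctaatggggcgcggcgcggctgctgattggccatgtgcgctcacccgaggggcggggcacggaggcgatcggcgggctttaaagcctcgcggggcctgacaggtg
Lpcat3: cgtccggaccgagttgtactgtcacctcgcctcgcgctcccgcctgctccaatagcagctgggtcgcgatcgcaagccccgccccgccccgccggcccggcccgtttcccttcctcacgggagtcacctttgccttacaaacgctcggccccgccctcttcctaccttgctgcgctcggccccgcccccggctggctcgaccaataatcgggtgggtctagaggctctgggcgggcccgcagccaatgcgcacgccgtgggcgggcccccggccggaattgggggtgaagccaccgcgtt
Pltp: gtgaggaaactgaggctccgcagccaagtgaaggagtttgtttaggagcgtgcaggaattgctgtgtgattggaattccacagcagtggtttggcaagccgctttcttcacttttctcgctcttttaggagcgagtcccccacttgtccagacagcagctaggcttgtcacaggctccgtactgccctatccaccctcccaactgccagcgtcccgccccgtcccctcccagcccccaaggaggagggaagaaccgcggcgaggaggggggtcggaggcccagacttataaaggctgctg
Neither an exact AGGTCA on either strand nor a DR4 with at most 2 mismatches was present in any of the 13 windows. Among all 32851 promoters in the RefSeq table, 16.3% held the exact AGGTCA and 3.02% such a DR4. With 3 mismatches allowed, a limit chosen after the sequences were seen, 2 of the 13 windows held a match, as did 21.9% of all promoters. The matches were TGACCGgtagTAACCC in the Abca1 promoter, starting 67 bases before the start, and TGACCGccagTAACCC in the Srebf1 promoter, starting 182 bases before it, both with the repeat read on the opposite strand. These letters describe the windows only. Srebf1 has 3 starts in the table, and the window printed was chosen for its match, while the closest DR4 in each of its other 2 windows had 4 mismatches. The RNA-seq table gives the gene in 1 row, so its transcripts from different starts were not separated.

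Levels of the 10 genes spanned a wide range. Per kb of transcript, the mean log2 level in shGFP cells without IL4 was highest for Scd2 (12.84), a stearoyl-CoA desaturase that introduces a double bond into saturated fatty acids. Pltp (10.04), Srebf1 (10.00), Lpcat3 (9.76), Abcg1 (9.16) and Nr1h2 (9.10) came next, and then Mylip (7.18), Nr1h3 (6.25) and Apoe (6.22). Abca1, which exports cholesterol and phospholipid to apolipoprotein A-I, was the lowest of the 10 at 2.59 and stood at the 10.7th percentile of the genes tested, against the 98.5th for Scd2. Only 2 pairs of neighbours in this order, Abcg1 with Nr1h2 and Nr1h3 with Apoe, had overlapping ranges over the 4 libraries. Without division by length Pltp was in place 5 and not 2, Abcg1 was in place 3 and Srebf1 in place 2, while Scd2 remained first and Abca1 last. In all 4 groups Scd2 was the highest, Pltp the second and Abca1 the lowest of the 10 per kb. The level and place of Pltp may hold reads of Ctsa, a gene on the opposite strand that covers 19.3% of the Pltp exon bases with its own exons and stood at a mean log2 level of 12.30 per kb in shGFP cells, since the counting did not use strand.

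**Figure D1:**
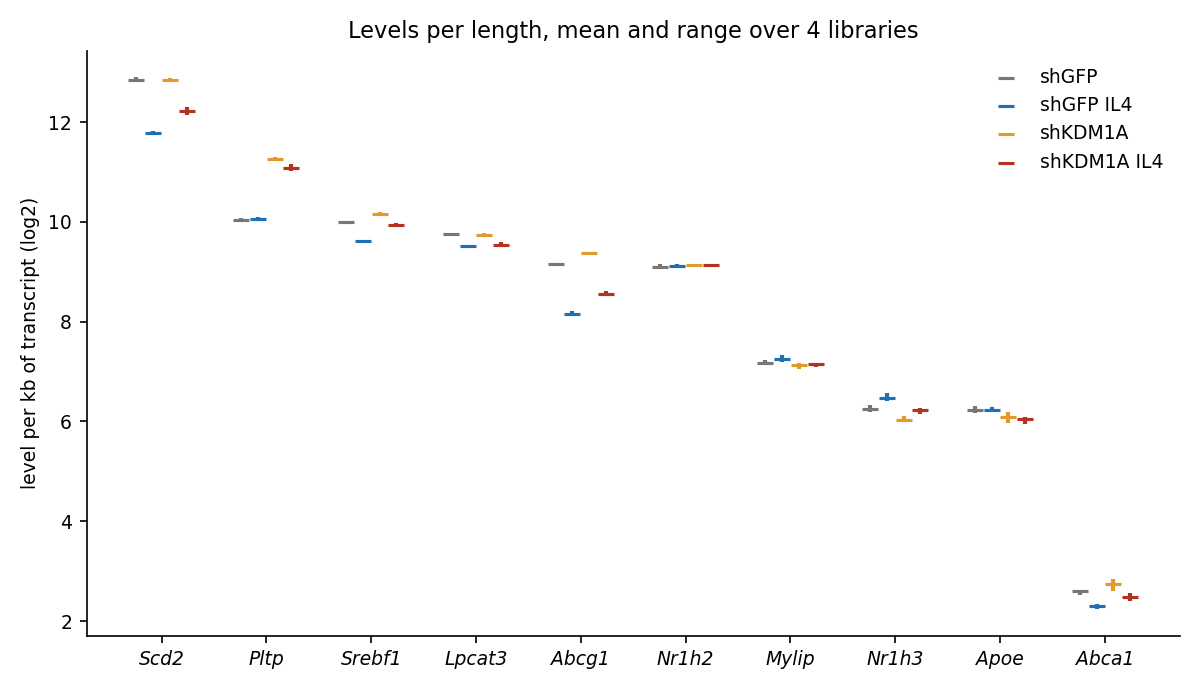
Log2 level per kb of transcript (y axis) of each of the 10 genes (x axis, ordered by the level in shGFP cells). Horizontal marks are group means and vertical lines the range over 4 libraries. Scd2 is highest and Abca1 lowest in every group, while Abcg1 and Nr1h2 change places between groups, as do Nr1h3 and Apoe.

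The receptors differed from each other. Nr1h2 (LXRβ), on chromosome 7 of mm9 from 51804986 to 51809335, had group mean log2 values of 10.11, 10.13, 10.14 and 10.14 in shGFP, shGFP with IL4, shKDM1A and shKDM1A with IL4, with SDs of 0.0066 to 0.049. It was called in none of the 5 comparisons by limma, with unadjusted p-values of 0.258 to 0.93, and the 95% interval of its IL4 difference in shGFP cells ran from -0.03 to 0.07. Nr1h3 (LXRα), on chromosome 2 from 91024218 to 91035273, had log2 values of 7.04, 7.10, 7.06 and 7.18 in shGFP cells, which were all below 7.29, 7.42, 7.26 and 7.25 with IL4. In shKDM1A cells its values were 6.95, 6.86, 6.84 and 6.83 without IL4 and 7.11, 7.07, 7.11 and 6.98 with IL4. Every IL4 library was thus above every library of the same line without IL4, and within each treatment every shKDM1A library was below every shGFP library. The log2 difference was 0.21 with IL4 in shGFP cells (standard error 0.042, adjusted p = 0.00121 from limma) and -0.23 for shKDM1A against shGFP without IL4 (standard error 0.042, adjusted p = 0.000422).

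**Figure D2:**
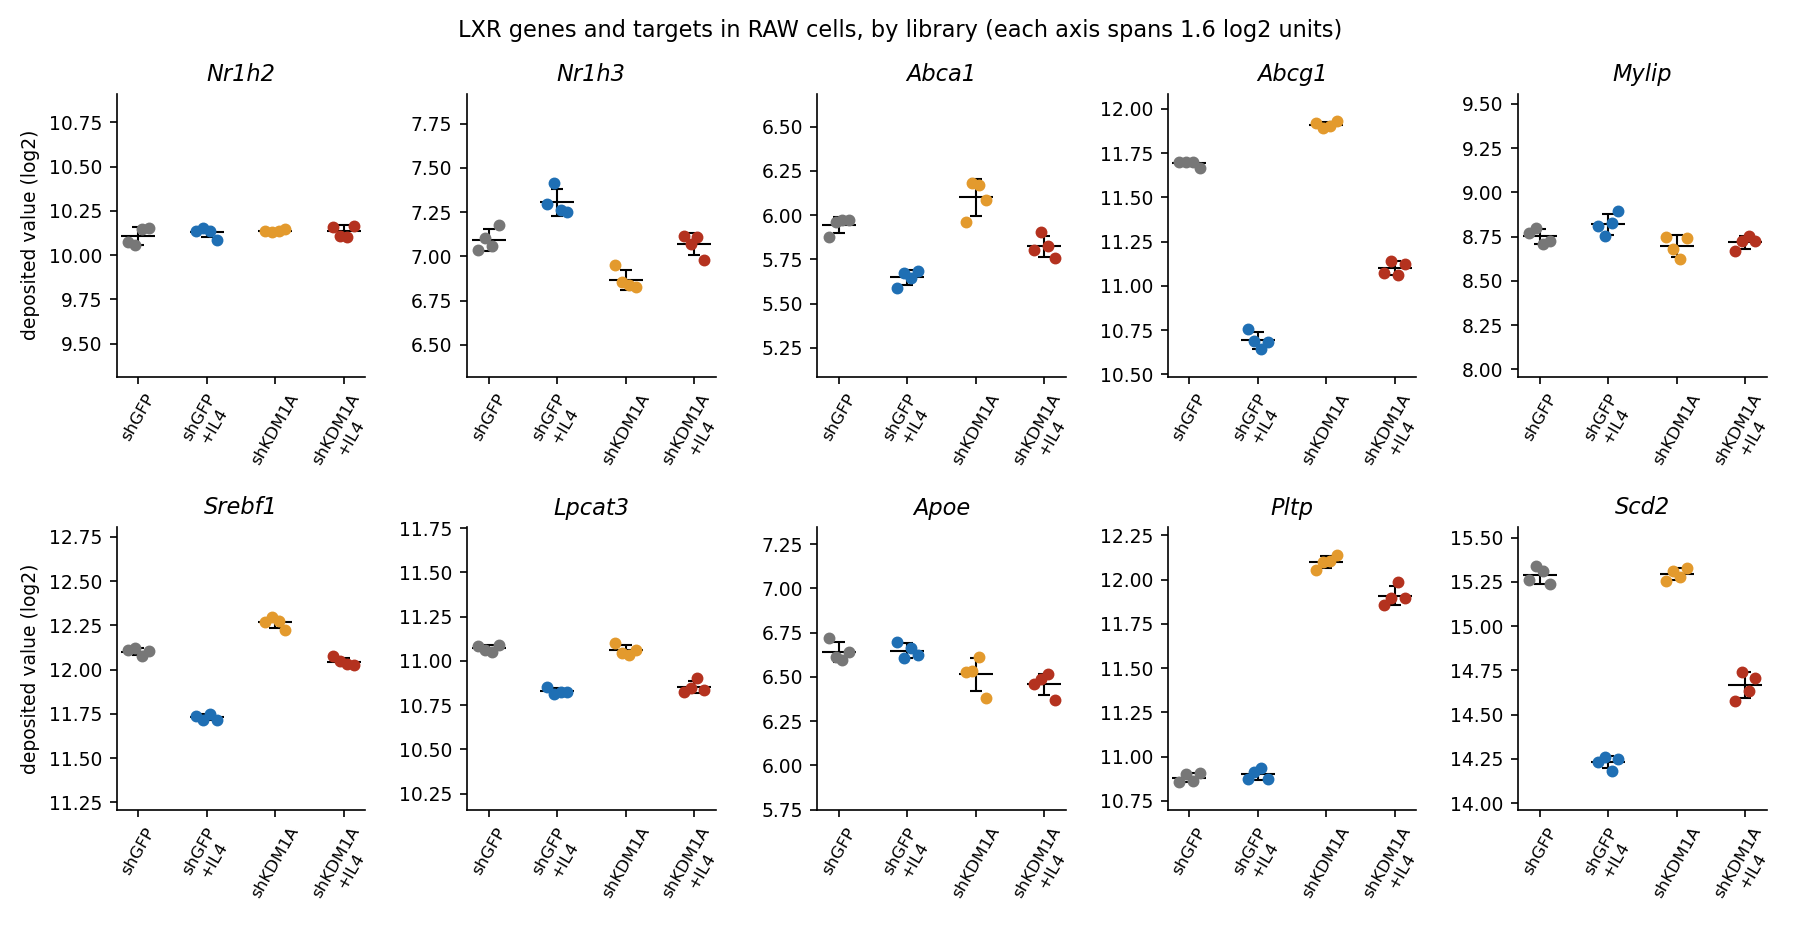
Deposited log2 value (y axis, each spanning 1.6 units) of the 10 genes in each of the 16 RAW libraries (points) by group (x axis), with the mean as a bar and the SD of 4 libraries as the error bar. Abcg1 and Scd2 drop with IL4 in both lines, Pltp stands higher in the shKDM1A groups, and the 4 groups of Nr1h2 overlap.

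IL4 in control cells was the first comparison, asking how the cytokine changed these genes. Of the 10 genes, 6 were called, 1 higher and 5 lower, where 26.9% of all genes tested were called, 13.1% as higher and 13.7% as lower. The groups did not overlap for the same 6 genes, against 28.3% of all genes tested. The median log2 difference of the 10 genes was -0.12, beside -0.00049 over all genes, and the corresponding medians for IL4 in shKDM1A cells were -0.20 and -0.0025.

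The efflux transporters both fell. Abcg1, on chromosome 17 from 31194639 to 31254926, encodes a transporter that passes cholesterol to high-density lipoprotein. Its log2 values were 11.70, 11.70, 11.70 and 11.67 without IL4 and 10.75, 10.69, 10.64 and 10.68 with it, a log2 difference of -1.0002 (standard error 0.024, adjusted p = 3.01e-14 from limma) and a fold of 0.4999. No other gene of the 10 but Scd2 had a difference of this size in shGFP cells. Abca1, on chromosome 4 from 53043661 to 53172767, had log2 values of 5.88, 5.96, 5.97 and 5.97 without IL4 and 5.59, 5.68, 5.65 and 5.69 with it. All 4 IL4 libraries were lower, by a mean of 0.30 on the log2 scale (log2 difference -0.30, standard error 0.044, adjusted p = 8.6e-05).

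The genes of fatty acid and membrane lipid handling fell with them. Scd2, on chromosome 19 from 44368166 to 44381352, had log2 values of 15.26, 15.34, 15.31 and 15.24 in shGFP cells and 14.23, 14.26, 14.18 and 14.25 with IL4. Its log2 difference of -1.06 (standard error 0.034, adjusted p = 8.36e-13 from limma) was larger in size than that of 99.85% of the genes tested. Srebf1, on chromosome 11 from 60012586 to 60034129, encodes the transcription factor SREBP-1, which drives fatty acid synthesis genes. Its values of 12.11, 12.12, 12.07 and 12.10 were followed by 11.74, 11.72, 11.75 and 11.72 with IL4 (log2 difference -0.37, adjusted p = 3.37e-10). Lpcat3, on chromosome 6 from 124613122 to 124654734, encodes an enzyme that puts polyunsaturated fatty acids into phospholipids, and its values of 11.08, 11.06, 11.05 and 11.09 were all above those with IL4, 10.85, 10.81, 10.82 and 10.82 (log2 difference -0.24, adjusted p = 1.84e-07). Emg1, which shares 38 exon bases (1.16% of those of Lpcat3) on the opposite strand, had a log2 difference of -0.03. Scd2 has close paralogs, and how reads matching several of them were counted is not given in the sources used here.

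The other 3 targets did not pass the test in control cells. Mylip, on chromosome 13 from 45485111 to 45507309, encodes the ubiquitin ligase IDOL, which leads the LDL receptor to degradation, and its group means were 8.75 without and 8.82 with IL4 (log2 difference 0.07, 95% interval -0.0025 to 0.14). Apoe, on chromosome 7 from 20281593 to 20284537, encodes a lipoprotein component that accepts cholesterol, with group means of 6.64 and 6.65 (95% interval of the log2 difference -0.09 to 0.10). Pltp encodes the phospholipid transfer protein of plasma lipoproteins, with group means of 10.88 and 10.90 (95% interval -0.04 to 0.08).

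The same comparison was made in shKDM1A cells, on separate libraries. Here 7 of the 10 genes were called, 1 higher and 6 lower, beside 27.1% of all genes, 13.6% higher and 13.5% lower. The groups of 7 genes did not overlap, beside 25.7% of all genes tested. Abcg1 had log2 values of 11.92, 11.89, 11.90 and 11.93 without IL4 and 11.08, 11.14, 11.06 and 11.12 with it (log2 difference -0.81, standard error 0.024, adjusted p = 5.59e-13 from limma). Scd2 went from 15.26, 15.31, 15.28 and 15.33 to 14.58, 14.74, 14.64 and 14.71 (log2 difference -0.63, standard error 0.034, adjusted p = 5.49e-10). For both genes the libraries with IL4 lay wholly below those without. Abca1 (log2 difference -0.28), Srebf1 (-0.22), Lpcat3 (-0.21) and Pltp (-0.19) also fell, and Nr1h3 rose (0.20).

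Pltp was the gene added in the knockdown cells. Its log2 values were 12.05, 12.10, 12.11 and 12.14 in shKDM1A cells and 11.86, 11.90, 11.99 and 11.90 with IL4 (adjusted p = 6.31e-05 from limma), with no overlap between the groups. Mylip, Apoe and Nr1h2 were not called.

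**Figure D3:**
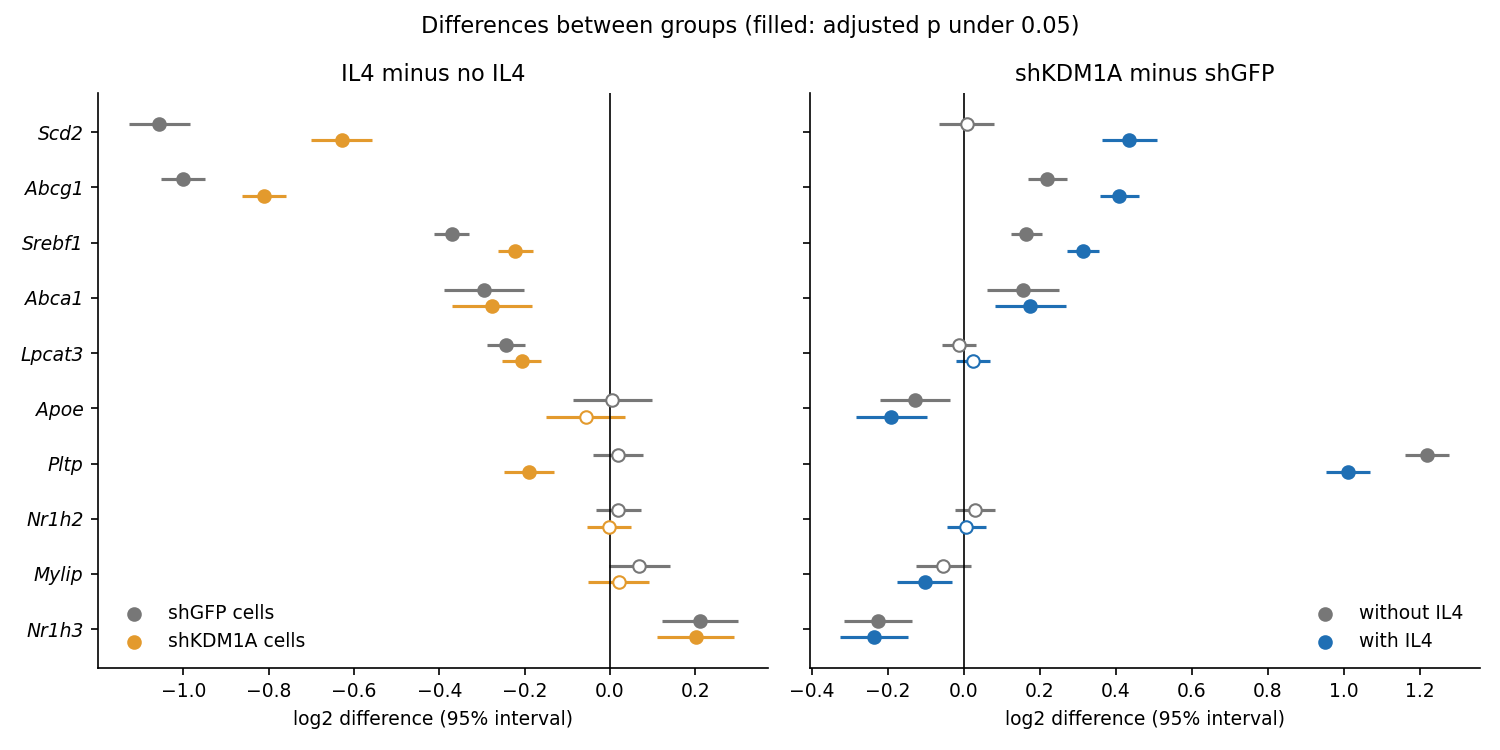
Log2 difference (x axis) with its 95% interval for each of the 10 genes (y axis), for IL4 against no IL4 in each line (left) and for shKDM1A against shGFP with and without IL4 (right). Filled points passed an adjusted p of 0.05. Abcg1 and Scd2 show the drops with IL4 that are greatest in shGFP cells, and Pltp stands apart at 1.22 and 1.01 on the right.

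The difference between the IL4 responses of the lines was tested directly, over all 16 libraries. It passed the test for 4 of the 10 genes, 3 higher and 1 lower, where 6.13% of all genes did, 3.56% as higher and 2.57% as lower. Scd2 differed most, by 0.43 (standard error 0.048, adjusted p = 7.59e-05 from limma), which means that its fall with IL4 was smaller in shKDM1A cells. The falls of Abcg1 (difference 0.19, adjusted p = 0.00373) and Srebf1 (0.15, adjusted p = 0.0042) were also smaller. Pltp went the other way (-0.21, adjusted p = 0.00449), with log2 differences of 0.02 in shGFP cells and -0.19 in shKDM1A cells. For Abca1 the difference was 0.02 (95% interval -0.11 to 0.15) and for Lpcat3 0.04 (-0.03 to 0.10), so these data show neither a difference between the lines nor an equal response for them. Of the 7 macrophage markers 3 were called in the same test, Lyz2 (difference 0.42, adjusted p = 2.88e-05 from limma), Adgre1 (-0.33) and Itgam (-0.16), and their part in the differences of the 10 genes was not tested.

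The knockdown of Kdm1a without IL4 was compared next. Of the 10 genes 6 were called, 4 higher and 2 lower, beside 38.2% of all genes tested, 19.7% higher and 18.4% lower. The groups of 4 genes, Pltp, Abcg1, Srebf1 and Nr1h3, did not overlap, beside 37.4% of all genes. Since this comparison shares its libraries with those of IL4, the members' values are set side by side and not counted as separate evidence.

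Pltp had the largest change of the 10. Its log2 values in shGFP cells were 10.86, 10.90, 10.86 and 10.91, all more than 1 unit below those in shKDM1A cells given above, a log2 difference of 1.22 (standard error 0.027, adjusted p = 8.29e-15 from limma) and a fold of 2.33. With IL4, where shGFP libraries were at 10.87, 10.91, 10.94 and 10.87, the difference was 1.01 (adjusted p = 7.86e-14). Pltp lies on chromosome 2 of mm9 from 164665018 to 164683208, and it overlaps Ctsa, a lysosomal carboxypeptidase gene on the opposite strand, over 1515 bases. In the GENCODE annotation of this build, 495 of 2562 exon bases of Pltp, 19.3%, are also exon bases of Ctsa, and the counting did not use strand, so reads there cannot be told apart. Ctsa stood at a higher level (log2 group means of 14.01, 13.86, 14.26 and 14.14 in the order shGFP, shGFP with IL4, shKDM1A and shKDM1A with IL4) and its own difference was 0.25 without IL4 (adjusted p = 2.84e-08) and 0.29 with it. The part of Ctsa reads in the Pltp values was not tested.

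The efflux and lipid genes moved less. Abcg1 was higher in shKDM1A cells by 0.22 without IL4 (adjusted p = 1.82e-06 from limma), and no shKDM1A library was as low as any shGFP library. Srebf1 was higher by 0.16 (adjusted p = 4e-06), with values of 12.27, 12.29, 12.27 and 12.23 in shKDM1A cells. Srebf1 shares 109 exon bases, 1.94% of its own, with Rai1 on the opposite strand, whose log2 difference was -0.26. Abca1 had log2 values of 5.96, 6.18, 6.17 and 6.09, which overlapped those of shGFP cells (log2 difference 0.16, adjusted p = 0.0106), and under quantile normalization the call was lost (adjusted p = 0.056).

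Apoe was lower in the knockdown, at 6.53, 6.53, 6.61 and 6.38 against 6.72, 6.61, 6.59 and 6.64, and these groups overlapped. Its log2 difference was -0.13 (adjusted p = 0.0281 from limma), and the call was lost without shGFP replicate 1 (log2 difference -0.10, adjusted p = 0.0956). It was also lost without shKDM1A replicate 4, where the log2 difference was -0.0846 (adjusted p = 0.102 from limma), smaller by more than 1.5 times. The log2 difference of Scd2 was 0.0073 (95% interval -0.06 to 0.08), that of Lpcat3 was -0.01 (-0.06 to 0.03) and that of Mylip was -0.05 (-0.13 to 0.02).

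With IL4 the knockdown showed 8 of the 10 genes called, 5 higher and 3 lower, beside 40.7% of all genes, 20.9% higher and 19.8% lower. The groups of 8 genes did not overlap, beside 36.4% of all genes. Scd2, which was not called without IL4, was 0.43 higher in the knockdown cells (limma, standard error 0.034, adjusted p = 2.74e-08). Abcg1 was higher by 0.41 (adjusted p = 9.57e-10), Srebf1 by 0.31 (adjusted p = 1.53e-09) and Abca1 by 0.17 (adjusted p = 0.00476). Srebf1 stood at 12.08, 12.05, 12.03 and 12.02 in the IL4-treated shKDM1A libraries, all above the IL4-treated shGFP libraries. Nr1h3 (log2 difference -0.24), Apoe (-0.19) and Mylip (-0.10) were lower, and Mylip lost its call under quantile normalization (adjusted p = 0.0515), without shGFP IL4 replicate 4 (0.0835) or without shKDM1A IL4 replicate 1 (0.0735). Lpcat3 (0.02, 95% interval -0.02 to 0.07) and Nr1h2 (0.0063, -0.05 to 0.06) were not called.

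Exact two-sided permutation tests of each gene over its 8 libraries cannot go below p = 0.0286 with 4 against 4, and that value was reached wherever the groups did not overlap. For Abca1 without IL4 the exact p was 0.114, and for Apoe 0.0571.

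The wider pathway was read from lists of genes that had been chosen with earlier results of these data in view. Of 7 LXR partners and corepressor subunits, 2 were called higher with IL4 in shGFP cells, namely Tbl1xr1 (log2 difference 0.13) and Gps2 (0.12), with a list median of 0.06. This share of called genes is close to that of all genes tested in the contrast, 26.9%. By limma none was called with IL4 in shKDM1A cells, where 1 was higher and 1 lower at an unadjusted p under 0.05, nor for the knockdown without IL4 or the difference of IL4 responses, where 1 was lower at that level in each. Of all genes, 27.1%, 38.2% and 6.13% were called in these 3 contrasts. With IL4, 3 of the 7 were called lower in the knockdown, Ncor1 (-0.24), Rxra (-0.15) and Tbl1xr1 (-0.08), where 19.8% of all genes were called lower.

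Of 17 other reported LXR target genes, 11 were tested. With IL4 in shGFP cells 2 rose and 5 fell, with a median of -0.06, where 13.1% of all genes rose and 13.7% fell. Scd1, a desaturase gene close to Scd2, fell by 1.70 on the log2 scale and Fads2, a desaturase of polyunsaturated fatty acids, fell by 0.61, whereas Smpdl3a rose (0.57). In shKDM1A cells the counts were again 2 and 5, beside 13.6% and 13.5% of all genes, with Scd1 at -1.17, Arl4c at 0.45 and Elovl5 at -0.45. For the knockdown 7 of 11 were called higher without IL4 and none lower (2 lower at an unadjusted p under 0.05 from limma), where 19.7% of all genes were called higher and 18.4% lower, led by Lpl, a lipoprotein lipase (0.67), Elovl5 (0.50) and Scd1 (0.33). With IL4, 7 were higher and 1 lower, beside 20.9% and 19.8% of all genes, led by Scd1 (0.86), Lpl (0.68) and Elovl5 (0.42). Scd1 (0.53) and Fads2 (0.17) passed the test of the difference of IL4 responses, both as smaller falls in shKDM1A cells, and no other gene of this list did, where 6.13% of all genes passed.

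The SREBP2 pathway, which serves cholesterol synthesis, was also mostly lower with IL4. Of 10 genes tested 7 fell and 1 rose in each line, with list medians of -0.35 in shGFP cells and -0.29 in shKDM1A cells. Of all genes 13.7% fell in shGFP cells and 13.5% in shKDM1A cells, and 13.1% and 13.6% rose. In shGFP cells Lss fell by 0.80, Insig1 fell by 0.70 and Fdft1 fell by 0.47 on the log2 scale. In the knockdown without IL4, 4 were higher, led by Fdft1 (0.16), Lss (0.13) and Sqle (0.13), and 1 was lower, beside 19.7% and 18.4% of all genes. With IL4, 6 were higher, beside 20.9% of all genes, led by Lss (0.27), Fdft1 (0.21) and Srebf2 (0.19). In its IL4 response 1 gene, Lss (0.13), differed, beside 6.13% of all genes.

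Genes of cholesterol uptake, storage and transport moved in both directions with IL4. Of 11 tested, 7 rose and 4 fell in shGFP cells and 3 rose and 4 fell in shKDM1A cells. Of all genes 13.1% rose and 13.7% fell in shGFP cells, and 13.6% rose and 13.5% fell in shKDM1A cells. Cd36, a scavenger receptor for oxidised lipoproteins, rose by a log2 difference of 1.73 in shGFP cells and 1.40 in shKDM1A cells, while Scarb1, a receptor for high-density lipoprotein, went by -0.55 and -0.45. Lrp1 rose in shGFP cells (0.56) and Nceh1 fell in shKDM1A cells (-0.45). In the knockdown without IL4, 8 were higher and none lower, also at an unadjusted p under 0.05 from limma, beside 19.7% and 18.4% of all genes, led by Npc2, a lysosomal cholesterol carrier (0.67), Cd36 (0.32) and Scarb1 (0.26). With IL4, 5 were higher, led by Npc2 (0.75), Scarb1 (0.36) and Msr1 (0.31), and 2 lower, beside 20.9% and 19.8% of all genes. The difference of IL4 responses was called for 1 higher, Msr1 (0.21), and 4 lower, led by Cd36 (-0.33) and Npc1 (-0.21), beside 3.56% and 2.57% of all genes.

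Enzymes that make or remove LXR ligands were mostly too low to test, with 2 of 6 passing the filter. By limma neither was called with IL4 in shKDM1A cells, also at an unadjusted p under 0.05, beside 27.1% of all genes. The shares of all genes called in the other contrasts were 26.9% for IL4 in shGFP cells, 38.2% and 40.7% for the knockdown without and with IL4 and 6.13% for the difference of IL4 responses. Hsd3b7, an oxysterol dehydrogenase of bile acid synthesis, was called higher with IL4 in shGFP cells (0.38) and in the knockdown without (0.61) and with IL4 (0.28), and its difference of IL4 responses was -0.33. Cyp27a1, which makes an oxysterol from cholesterol, was called in the knockdown with IL4 (-0.09).

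**Figure D4:**
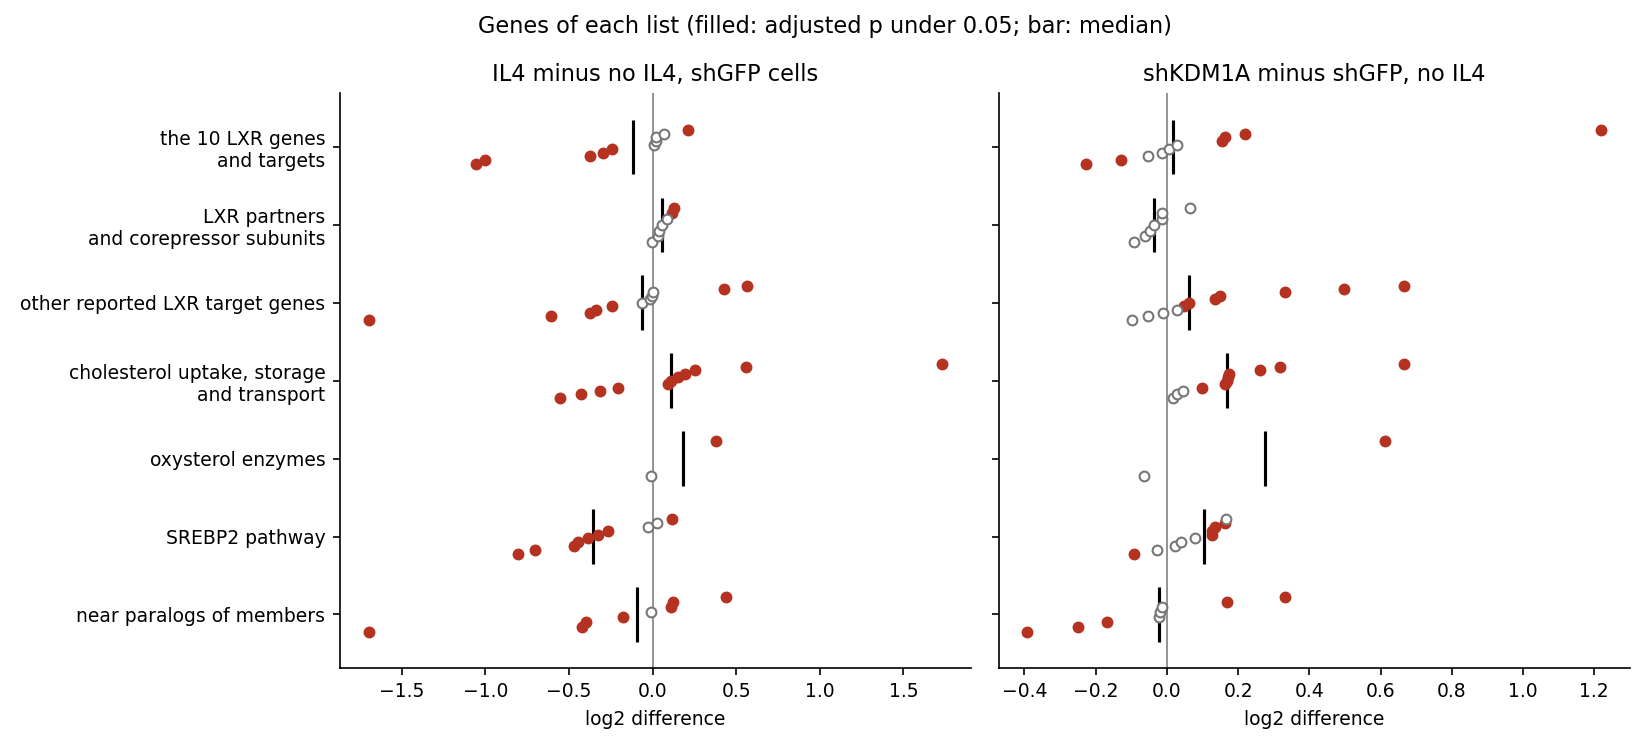
Log2 differences (x axis) of the 10 genes and of the tested genes of 6 lists (y axis, 1 point per gene, black bar for the median), for IL4 in shGFP cells (left) and for shKDM1A against shGFP without IL4 (right). Filled points passed an adjusted p of 0.05. The SREBP2 pathway list has a median of -0.35 on the left, and Pltp is the point farthest to the right at 1.22 on the right.

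The genes whose pattern was most like those of the transporters were named by Pearson's r over the 16 libraries, as a description of values that mostly follow the 4 groups. For Abcg1 they were Gas7 (r = 0.997), Scd1 (0.994) and Aacs (0.994), an acetoacetyl-CoA synthetase, and for Abca1 they were Srebf2 (0.962), Hgsnat (0.950) and Nkiras2 (0.947). Within the 10 genes, r with Abcg1 was 0.984 for Scd2, 0.933 for Lpcat3, 0.930 for Srebf1, 0.917 for Abca1 and 0.383 for Pltp. It was -0.0653 for Nr1h2, -0.161 for Apoe, -0.545 for Mylip and -0.822 for Nr1h3.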

How the data were processed

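RNA-seq of 16 RAW libraries in 4 groups of 4 was analysed, out of 203 samples in the series. The other samples were not analysed here. The authors counted exon reads of mm9 RefSeq genes on both strands with HOMER, keeping 1 row for each gene, and ran DESeq2 between groups. The deposited RAW values are on a log2 scale, and the transformation is not given in the sources used here. Tags of 17554721 to 27782568 per library lie behind them, and the values, taken out of the log, summed to totals that differed by at most 4.83% between libraries, so library sizes were already equalised. Of 25094 genes, 8488 were at 0 in every library. As the deposited log2 values are not counts, no count model was fitted. All 16 value columns matched a sample. The tables also hold the authors' own comparisons (fold changes on the log2 scale with their raw and adjusted p), for BMDMs nothing else, and these were not used.

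Groups were taken from the sample titles, and the cell type (RAW cells) from the source label. A caption of the study names BMDMs for the shKDM1A experiment, which its other text and the labels place in RAW cells. Values as deposited were fitted with limma 3.58.1 in R 4.3.3, in 1 model of 4 groups over 12905 genes (those reaching a value of 1 in 4 or more libraries), for 5 contrasts, Benjamini-Hochberg adjustment per contrast and a threshold of 0.05. The fit was tested on simulated data. Level per kb is the mean log2 value minus log2 of the transcript length in kb. The genes named were all 10 members, Kdm1a and list members past the threshold with the 3 largest changes in a contrast discussed (given in other contrasts too). The 3 genes with the highest r to Abca1 and to Abcg1 were also named. The genes of the overlaps, Abca7 and Cish were added after their values were seen. The members and lists were chosen with earlier results of these data known, and 3 genes of the lists are not reported here. Alternatives were other filters, median centring, quantile normalization, other prior variances, only the groups compared, a replicate block and leaving out each library. Promoters came from RefSeq (GRCm38.p6), of another build than the mm9 positions, and no position was carried between builds.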

Additional observations from a re-analysis of the deposited data

Results flagged for a closer look

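The IL4 response differed between shKDM1A and shGFP cells for 4 of the 10 genes, by limma's test of the difference itself over the 16 libraries, where 6.13% of all 12905 genes tested differed. The difference, as the response in shKDM1A cells minus that in shGFP cells on the log2 scale, was 0.43 for Scd2, 0.19 for Abcg1, 0.15 for Srebf1 and -0.21 for Pltp. Each kept its sign without any 1 of the 16 libraries, at 0.40 to 0.46 for Scd2, 0.17 to 0.21 for Abcg1, 0.14 to 0.16 for Srebf1 and -0.23 to -0.19 for Pltp.

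In 2 of 40 groups screened, 1 library stood apart from the other 3 of its group by Dixon's test. Abca1 in shGFP replicate 1 had a log2 value of 5.88, below 5.96 to 5.97 in the others, and Abcg1 in shGFP replicate 4 had 11.67, below 11.70 in the others. Chance flags about 1 in 20 groups.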

How the results depend on the processing

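All 87 alternative counts of members called stayed within 1.5 times the count reported, with the replicate block giving 6, 7, 6, 8 and 4 for IL4 in shGFP, IL4 in shKDM1A, shKDM1A without IL4, shKDM1A with IL4 and the difference of IL4 responses, the same counts as without the block. Same-numbered libraries did not deviate together (r -0.34 to 0.27, median 0.045, over 24 pairs), and 6 of 16 libraries correlated best with their own number. Of the alternative values of single genes, 838 kept direction and side of the threshold, 8 lost the call and 24 changed sign, all of genes that were not called. Apoe in shKDM1A without IL4 also lost its call with no filter (adjusted p = 0.0528 from limma) and with only the groups compared (0.053). Signs changed for Nr1h2 with IL4 in shKDM1A under median centring (0.008), and under quantile normalization for Scd2 in shKDM1A without IL4 (-0.0784) and Nr1h2 in shKDM1A with IL4 (-0.0040). Leaving out 1 library gave -0.0107 to 0.0328 for Apoe with IL4 in shGFP, -0.0129 to 0.0083 for Nr1h2 and -0.0048 to 0.037 for Mylip with IL4 in shKDM1A, -0.0093 to 0.025 for Scd2 in shKDM1A without IL4, -0.0073 to 0.0168 for Nr1h2 in shKDM1A with IL4, and -0.0376 to 0.0267 for Nr1h3 and -0.0277 to 0.0472 for Abca1 in the difference of IL4 responses. The cause was not tested. The values carry no counts, so what depth limits for each gene was not measured.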

Other observations

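Paralogs close to the members were read beside them. Scd1 was also counted above among the other reported LXR target genes, and Abca7 among those of cholesterol uptake, storage and transport. These lists are therefore not separate. Of 8 such genes 3 rose and 4 fell with IL4 in shGFP cells, and 2 rose and 2 fell in shKDM1A cells, where 13.1% and 13.7% of all genes rose and fell in shGFP cells and 13.6% and 13.5% in shKDM1A cells. Scd1, next to Scd2 in its family, fell by 1.70 on the log2 scale in shGFP cells and Scd3 fell by 0.42, while Lpcat1, a relative of Lpcat3, rose (log2 difference 0.44 in shGFP and 0.49 in shKDM1A cells). Scd4 had a log2 difference of -0.15 with IL4 in shKDM1A cells. In the knockdown without IL4, 2 were higher and 3 lower, among them Lpcat4 (-0.39) and Lpcat2 (-0.25), beside 19.7% and 18.4% of all genes. With IL4, 3 were higher and 3 lower, among them Scd4 (0.22) and Lpcat2 (-0.26), beside 20.9% and 19.8% of all genes. The IL4 responses differed for Scd1 (0.53) and Lpcat4 (0.19), beside 6.13% of all genes.

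Genes known to respond to IL4 were read for the size of that response. Their mean log2 values in shGFP cells without IL4 lay between 3.96 (Cish) and 7.90 (Ptgs1), below Abcg1 (11.69) and Scd2 (15.29). Whether sizes of change can be compared between such levels was not tested. All 6 examined rose in both lines, beside 13.1% and 13.6% of all genes. In shGFP and shKDM1A cells the log2 differences were 1.77 and 1.08 for Ptgs1, 1.32 and 0.50 for Mrc1 and 0.91 and 0.86 for Egr2. They were 0.56 and 0.72 for Il4i1, 0.705 and 0.37 for Socs1 and 0.38 and 0.19 for Cish. The difference of responses was called by limma for 4 of them, all lower (1 was higher at an unadjusted p under 0.05), beside 2.57% of all genes, led by Mrc1 (-0.82), Ptgs1 (-0.69) and Socs1 (-0.33).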
